A study of Mus musculus with 6 samples.

Results

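The interleukin 6 (IL-6) family was followed in osteoclast cultures with and without the chloride channel gene *Ano1*, as 10 genes picked by name: the ligand genes *Il6*, *Il11*, *Lif*, *Osm*, *Clcf1* and *Ctf1*, and the receptor genes *Il6ra*, *Il6st*, *Lifr* and *Osmr*. These are 10 of the 37074 gene names on the array, and they carry 19 of its 56605 distinct probes. All 10 had a probe, and 8 of the 10 were bright enough to be tested. Among these, *Il6*, *Lif*, *Clcf1* and *Osmr* were more than 2-fold higher and *Il6ra* and *Lifr* more than 2-fold lower in the cultures labelled Ctsk-Cre;Ano1fl/fl. *Osm* rose and *Il6st* fell by less than that.

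Bone marrow cells of 3 Ano1fl/fl mice and 3 Ctsk-Cre;Ano1fl/fl littermates were treated with RANKL, the cytokine that drives osteoclast formation, for 5 days, and their RNA was read on 6 single-dye Agilent arrays. Both groups carry the floxed *Ano1* allele on both chromosomes, so the controls are floxed mice without the Cre transgene and not wild-type mice. In the knockouts, Cre recombinase is driven by the cathepsin K promoter, which becomes active as precursors turn into osteoclasts, so that deletion is meant to follow differentiation. For such cultures in general, the methods name marrow of mice aged 6 to 8 weeks, 1 day in 10 ng/ml M-CSF, the growth factor of macrophages, and then RANKL at 50 ng/ml beside M-CSF at 30 ng/ml. RANKL and M-CSF were thus given to both groups.

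Cytokines of this family signal through gp130, the membrane protein encoded by *Il6st*. IL-6, IL-11 and CLCF1 first bind a receptor chain that carries no signal. IL-6 and IL-11 then bring gp130 molecules together, while CLCF1, LIF, oncostatin M and cardiotrophin 1 draw gp130 into a pair with the LIF or the oncostatin M receptor. The complex activates JAK kinases and the transcription factor STAT3, which induces, among others, its own inhibitor SOCS3. In bone these cytokines come from stromal cells, osteoblasts, osteocytes and myeloid cells, and several of them raise osteoclast formation by making osteoblast lineage cells express RANKL.

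The upstream sequences of the 3 members with the largest fitted differences on the scanner's processed signals are shown as context for those differences. After another background correction, normexp, *Lif* (1.27) differed less than *Lifr* (-1.30). The sequences are the 250 bases before the start site in RefSeq annotation of GRCm38.p6, 5′ to 3′ on the strand of the gene. Matches to any of 5 short motifs are in capitals. The sequences lie at chr5:30012864-30013113 on the plus strand for *Il6*, chr11:4257318-4257567 on the plus strand for *Lif* and chr15:6874314-6874563 on the minus strand for *Osmr*.
Il6: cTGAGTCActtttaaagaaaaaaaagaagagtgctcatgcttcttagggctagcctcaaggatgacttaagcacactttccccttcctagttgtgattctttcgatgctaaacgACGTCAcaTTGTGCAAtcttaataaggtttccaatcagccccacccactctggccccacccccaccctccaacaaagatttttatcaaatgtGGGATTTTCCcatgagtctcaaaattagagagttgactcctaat
Lif: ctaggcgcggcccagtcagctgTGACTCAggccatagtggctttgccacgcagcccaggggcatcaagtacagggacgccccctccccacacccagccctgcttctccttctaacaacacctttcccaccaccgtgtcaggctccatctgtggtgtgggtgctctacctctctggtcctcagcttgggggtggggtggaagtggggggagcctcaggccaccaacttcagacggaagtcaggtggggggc
Osmr: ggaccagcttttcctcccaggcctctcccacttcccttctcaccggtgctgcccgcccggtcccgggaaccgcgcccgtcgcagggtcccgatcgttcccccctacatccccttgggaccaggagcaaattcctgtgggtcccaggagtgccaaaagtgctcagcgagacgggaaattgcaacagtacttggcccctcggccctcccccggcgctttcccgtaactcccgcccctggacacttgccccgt
The motifs, searched on both strands, were GGG, 3 free bases and TTCC for NF-kappa B, TGANTCA for AP-1, TGACGT as the core of a cAMP response element (CRE), TTGNNCAA for C/EBP and TTCNNNGAA for STAT. With positions counted back from the start site, the *Il6* window held an AP-1 match at -249 to -243, a CRE core on the minus strand at -136 to -131, a C/EBP match at -128 to -121 and an NF-kappa B match at -44 to -35. The *Lif* window held only an AP-1 match, at -228 to -222. In the *Osmr* window none of the 5 motifs matched. Of the 10 windows found for 8 members, the only other one with a match was that of the second start site of *Il11*, with AP-1 at -98 to -92. No matches overlapped. Among all 32851 windows of this length in the table, 4.65% held the NF-kappa B letters, 6.75% AP-1, 6.47% the CRE core, 5.65% C/EBP and 7.02% STAT. A match is a description of the letters and not evidence of binding.

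The arrays were alike in brightness. Between 33480 and 34951 of the 59305 transcript spots on an array carried the scanner's flag for a signal well above background. Of these transcript spots 0 were saturated. The 6 arrays shared 1 slide and 1 scan. Signals are given below as log2 values after quantile normalization, which makes the 6 arrays share a single distribution, and differences are Ctsk-Cre;Ano1fl/fl minus Ano1fl/fl on that scale. The single *Ano1* probe lay below that flag on every array, with processed signals of 3.28, 3.22 and 3.91 in the controls and 3.23, 3.25 and 3.81 in the knockouts. It therefore gives no check of the genotype labels, and every direction here rests on those labels. The study describes lower osteoclast markers and lower c-Fos protein in this genotype. On the arrays so labelled the osteoclast markers run the opposite way, whereas *Fos* transcripts were lower, and whether the labels of the groups are exchanged was not tested.

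Markers of several cell types moved with the groups, which bears on each result that follows. Markers counted here as more than 2-fold different also had an adjusted p under 0.05. Over all genes tested 9.88% were so higher and 7.19% lower, and on the adjusted p alone 23.4% and 29%. Of 9 osteoclast markers, 8 were more than 2-fold higher in the knockout cultures, *Ctsk* by 3.17 and *Mmp9* by 4.36 on the log2 scale, and their summed linear level went from 143102 to 155619 in the controls to 494029 to 556836. The macrophage list had a summed level of 513233 to 535585 in the controls and 540528 to 595841 in the knockouts, with 1 of 8 markers, *Cx3cr1*, lower by more than 2-fold. On the adjusted p alone *Adgre1* (0.80) was higher and *Fcgr1* (-0.91) lower, and the other 5 did not pass. Of 18 stromal cell and osteoblast markers tested, 13 were higher and 0 lower at that threshold. Their summed level was 23662 to 26134.1 in the controls and 96009.7 to 141830 in the knockouts. *Col1a1* differed by 6.12 and *Sparc* by 4.82. *Lum* and *Pdgfra*, among the 13, were not well above background on any control array and were tested only through the knockouts. In the same list *Lepr* (-0.69) and *Runx2* (-0.46) were lower on the adjusted p alone, and the osteoblast factor *Sp7* (-0.08) and *Thy1* (0.21) did not pass. Of 9 neutrophil markers, *Mpo*, *Elane*, *Prtn3* and *Retnlg* were called lower, *Ngp* (-0.30) and *S100a8* (-0.60) were lower and *Ltf* (0.33) higher on the adjusted p alone, and *Camp* and *S100a9* did not pass. The summed level was 319524 to 336403 in the controls and 212274 to 264680 in the knockouts. Lower too were mast cell and basophil markers, 4 of 6 tested, with 3251.16 to 4460.52 against 732.805 to 1840.03. Endothelial markers summed to 6111.24 to 7722.41 in the controls and 2923.21 to 3516.97 in the knockouts with 1 of 5 lower, and T and NK cell markers to 2979.87 to 3309.85 and 2115.93 to 3799.68 with 3 of 6 higher and 1 lower. In RNA from whole cultures, fewer cells of a type and less RNA per cell cannot be told apart, and the part of any of these cell types in the family's differences was not tested.

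**Figure D1:**
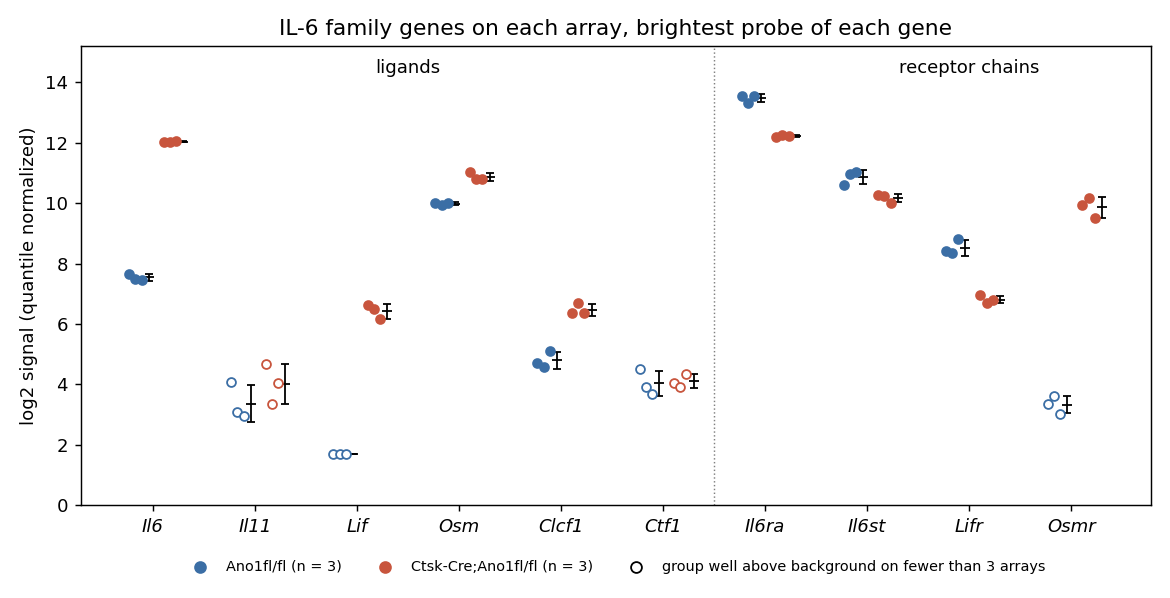
Normalized log2 signal (y axis) of the brightest probe of each of the 10 genes (x axis) on the 3 Ano1fl/fl and 3 Ctsk-Cre;Ano1fl/fl arrays, with mean and SD bars beside the points and open points where a group was well above background on fewer than 3 arrays. The 2 groups are apart for all genes except *Il11* and *Ctf1*, with *Il6*, *Lif*, *Osm*, *Clcf1* and *Osmr* higher and *Il6ra*, *Il6st* and *Lifr* lower in the knockouts.

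Each gene was represented by its brightest probe, and a call asked for an adjusted p under 0.05 in limma, corrected over all 20645 genes tested by Benjamini-Hochberg, together with a change of more than 2-fold. By that rule 4 of the 8 members tested were higher and 2 lower. Of the 4, *Lif* and *Osmr* were tested only because they were bright in the knockouts, and with a signal well above background asked for on all 6 arrays 2 members were higher and 2 lower. Over the whole array 9.88% of the genes tested were called higher and 7.19% lower, 17.1% in all. On the adjusted p alone, 5 members were higher and 3 lower, where 23.4% and 29% of all genes were. The groups did not overlap for any of the 8 members, nor for 64% of all genes tested. The median difference of the 8 was 1.29, also with *Lif* and *Osmr* at the lower bounds given for them below, beside -0.06 for all genes. The 3 against 3 arrays could not give a two-sided exact permutation p below 0.1 for a single gene, so p-values are those of the limma model, which borrows the spread from all genes.

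**Figure D2:**
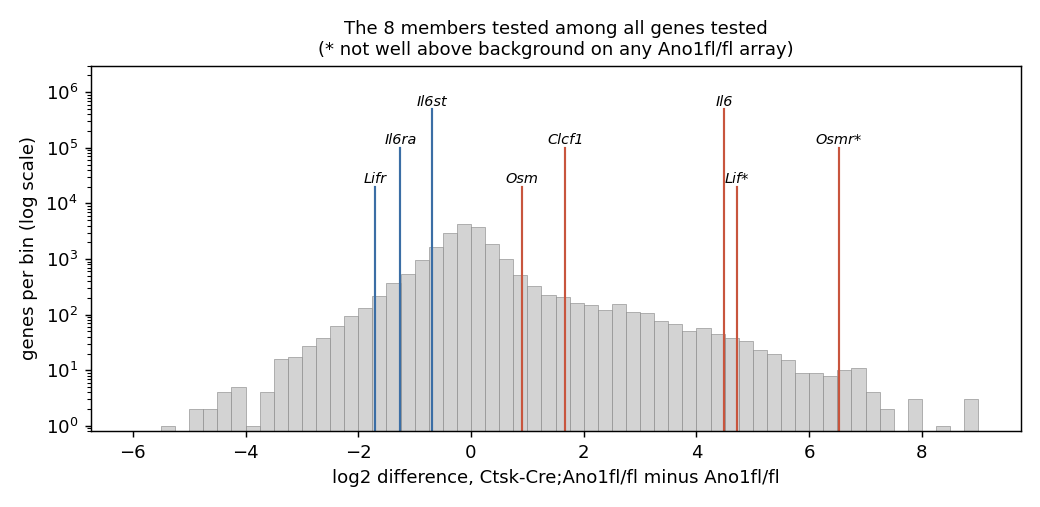
Number of genes (y axis, log scale) by log2 difference between Ctsk-Cre;Ano1fl/fl and Ano1fl/fl (x axis) for all 20645 genes tested, with a vertical line at each of the 8 members tested, whose height carries no value. *Il6* lies in the upper tail at 4.49 and *Lifr* is the lowest member at -1.71, while the lines of *Lif* and *Osmr*, marked by an asterisk, are fitted against unmeasured control levels and have lower bounds of 2.45 and 5.89.

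Of the ligands, *Il6*, which encodes the founding cytokine of the family, differed most among those measured in both groups. Its brighter probe, at position 945 of transcript NM_031168 (chr5:30346367-30346426 of mm9, plus strand), had processed signals of 193, 200.3 and 210.3 in the controls and 4213, 3333 and 3960 in the knockouts. Normalized log2 signals were 7.67, 7.50 and 7.46 against 12.04, 12.02 and 12.05. Every knockout array was thus far above every control array, and the spread within a group was small. The means were 7.54 ± 0.11 and 12.03 ± 0.02 (SD, n = 3), a difference of 4.49 (SE 0.08, limma adjusted p = 2.68e-06, 95% interval 4.30 to 4.68) or 22.4-fold. That put *Il6* at rank 193 from the top of the 20645 genes by fitted difference. The ranking includes genes, such as *Lif*, whose control level was not measured. A second probe, at position 737 of the same transcript, read 6.34, 6.15 and 6.39 against 10.99, 10.94 and 11.06, a difference of 4.70. Both *Il6* probes were thus higher in the knockouts. Whether the upstream matches shown above have a part in this was not tested.

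*Lif* encodes leukaemia inhibitory factor, named for its action on leukaemia cells and known for keeping mouse stem cells undifferentiated. Its probe (position 3529 of NM_008501, chr11:4172032-4172091 of mm9, plus strand) was not well above background on any control array, at 1.70, 1.70 and 1.69, and was so on all 3 knockout arrays, at 6.61, 6.49 and 6.15. A control level was thus not measured, only an upper limit to it. Set against the dimmest signal that the scanner still marked as real on each control array, the knockout mean was at least 5.46-fold higher (limma adjusted p = 7.76e-06, for a fit that takes the control readings as they are). That bound holds for the processed signals, since the log2 difference was 1.27 after normexp background correction and 1.88 with the spot medians of the series matrix, both higher in the knockouts but smaller than it.

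*Osm* encodes oncostatin M, which macrophages, neutrophils and other blood cells release. The brighter of its 2 probes (position 1750 of NM_001013365, chr11:4140873-4140932 of mm9, plus strand) gave 9.99, 9.92 and 10.02 in the controls and 11.03, 10.80 and 10.79 in the knockouts. The 3 knockout arrays were above the 3 controls, by 0.90 on average (SE 0.09, limma adjusted p = 0.00045, 95% interval 0.68 to 1.11), a 1.86-fold rise that did not reach the 2-fold of a call. On the dimmer probe, at position 377, controls read 2.73, 2.02 and 3.70, not well above background, and knockouts 5.31, 4.95 and 4.95, at least 2.14-fold higher by the processed signals (adjusted p = 0.00435 in the limma fit over probes). The log2 difference of this probe was 0.47 after normexp and also under 2-fold with the series matrix, both smaller than that bound. With both probes averaged *Osm* differed by 1.57, over 2-fold, but that mean takes the dimmer probe's control readings as they are and is no measured fold.

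*Clcf1*, whose product supports nerve cells and stimulates B cells, was dim but well above background on all 6 arrays. Its probe (position 682 of NM_019952, chr19:4222480-4222539 of mm9, plus strand) read 4.69, 4.58 and 5.10 in the controls and 6.36, 6.68 and 6.36 in the knockouts. The groups did not overlap. The difference was 1.67 (SE 0.16, limma adjusted p = 0.000457, 95% interval 1.27 to 2.07), or 3.19-fold. It shrank to 0.69 after normexp and 0.99 with the series matrix, past the adjusted p but under 2-fold in both.

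For the remaining ligands no difference could be measured. *Il11*, whose product acts on megakaryocytes and on bone-forming cells, read 4.07, 3.08 and 2.94 in the controls and 4.66, 3.35 and 4.04 in the knockouts (NM_008350, chr7:4724847-4724906 of mm9, minus strand). Its groups overlapped, and only 1 knockout array was well above background, so it was not tested and has no fold. *Ctf1*, the gene of cardiotrophin 1, a growth factor of heart muscle cells, read 4.49, 3.93 and 3.68 against 4.05, 3.92 and 4.36 (NM_007795, chr7:134861581-134861640 of mm9, plus strand). It was well above background on 2 arrays of each group, overlapped, and was not tested either. A difference in these 2 genes was not detectable at this brightness. Of the 4 ligands tested, 3 were called higher and 0 lower, beside 9.88% and 7.19% of all genes, and *Lif* was tested only through its knockout arrays. Their median difference was 2.06 with *Lif* at its bound.

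Among the receptor chains, *Osmr* differed most and in the opposite direction to the other 3. It encodes the chain that pairs with gp130 to receive oncostatin M, and it is widely made by stromal and epithelial cells. Its brightest probe (position 4666 of NM_011019, chr15:6763686-6763745 of mm9, minus strand) read 3.35, 3.62 and 3.03 in the controls, all below the mark for background, and 9.93, 10.16 and 9.49 in the knockouts. The knockout mean was at least 59.5-fold higher (limma adjusted p = 1.36e-05, again with the control readings as they are). As for *Lif*, the bound holds for the processed signals of this probe. Log2 differences under the alternatives were smaller, 3.77 after normexp, 4.49 with the series matrix and 3.81 as the mean of all probes.

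The 2 dimmer *Osmr* probes were not well above background on any control array. At the probe of ENSMUST00000177263, controls read 1.77, 1.74 and 1.75 and knockouts 5.03, 5.42 and 3.63, with 2 knockout arrays above background. At position 1022 of NM_011019, controls read 1.74, 1.72 and 1.72 and knockouts 2.56, 4.65 and 3.84, with 1 above background. On both probes each knockout array exceeded each control, but neither was tested. The summed stromal marker level was higher in the same 3 arrays, as given above, and its part in the *Osmr* signal was not tested.

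*Il6ra*, the chain that binds IL-6 itself, was lower in the knockouts. Its brighter probe (position 2475 of NM_010559, chr3:89674054-89674113 of mm9, minus strand) read 13.54, 13.33 and 13.55 in the controls and 12.19, 12.24 and 12.23 in the knockouts. All 3 knockout arrays lay below all 3 controls. The difference was -1.25 (SE 0.08, limma adjusted p = 0.000111, 95% interval -1.46 to -1.05), a 2.38-fold fall. The second probe, at position 1208, gave 8.07, 7.84 and 7.89 against 7.22, 7.12 and 7.00, a smaller difference of -0.82 (adjusted p = 0.000953 in the limma fit over probes), which is under 2-fold.

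*Il6st*, the gene of gp130, through which all 6 ligands studied here signal, fell by less on its brightest probe than on the next. The brightest (position 4969 of NM_010560, chr13:113296586-113296645 of mm9, plus strand) gave 10.60, 10.95 and 11.04 in the controls and 10.26, 10.23 and 10.01 in the knockouts. Its groups were apart, but closely so, with a difference of -0.70 (SE 0.14, limma adjusted p = 0.00728, 95% interval -1.03 to -0.36), or 1.62-fold. At position 2978 the readings were 7.00, 6.92 and 6.85 against 5.33, 5.44 and 5.89, a difference of -1.37 (adjusted p = 0.000692 in the limma fit over probes). The third probe, on the cDNA AK170020, was well above background on only 1 array and was not tested. As the mean of its probes *Il6st* differed by -1.24, over 2-fold, a mean that includes the dim probe on AK170020.

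*Lifr*, the chain shared by LIF, cardiotrophin 1 and CLCF1, was lower on all 3 of its probes. The brightest (position 9492 of NM_013584, chr15:7147319-7147378 of mm9, plus strand) read 8.41, 8.33 and 8.81 in the controls and 6.94, 6.69 and 6.80 in the knockouts. The difference was -1.71 (SE 0.15, limma adjusted p = 0.000272, 95% interval -2.06 to -1.35), or 3.27-fold. At position 3854 the readings were 7.15, 7.38 and 7.33 against 5.29, 5.09 and 5.66, a difference of -1.94. The probe named for a second transcript variant, NM_001113386, read 6.37, 6.66 and 7.00 against 5.49, 5.25 and 5.22, a difference of -1.36. On each probe the groups were apart.

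**Figure D3:**
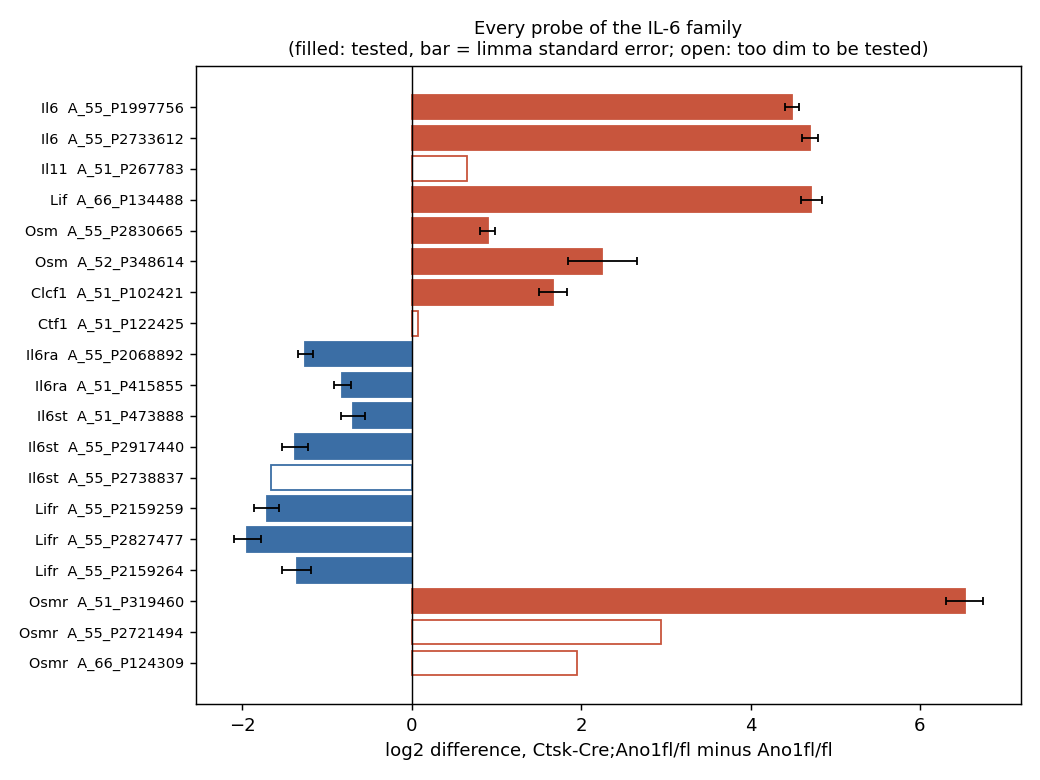
Log2 difference, Ctsk-Cre;Ano1fl/fl minus Ano1fl/fl (x axis), at each of the 19 probes of the family (y axis), with limma standard errors and open bars for the 5 probes too dim to be tested. All probes of a gene point the same way, while their sizes differ, and the bars of *Lif*, *Osmr* and the dimmer *Osm* probe are set against controls below background.

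Of the 19 probes, 14 were tested, and 6 of these were called higher and 5 lower, where 8.91% and 8.11% of the 31848 probes tested on the array were. Of the 6, the *Lif* probe, the dimmer *Osm* probe and the brightest *Osmr* probe were tested only because they were bright in the knockouts. The 14 were past the adjusted p, 7 in each direction, and their groups did not overlap, against 52.4% and 64% of all probes. Probes of 1 gene share their RNA and are not separate measurements of the difference between the groups. In the 4 receptor genes, 1 was called higher, *Osmr*, and 2 lower, beside 9.88% and 7.19% of all genes tested. *Osmr* was tested only through its knockout arrays. The median difference of the 4 genes was -0.97.

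Members that lie side by side on a chromosome did not share a direction in both cases. *Osm* and *Lif* are neighbours in RefSeq order on chromosome 11, with 31.2 kb between their probes, and both were higher in the knockouts. *Osmr* and *Lifr* lie on chromosome 15 with 383.6 kb between their probes and only 3 long noncoding RNA genes listed between them, none of them tested. There *Osmr* was higher, by the bound given above, and *Lifr* lower.

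The wider pathway was read from 6 lists of genes, 56 of whose 57 genes were on the array and 50 tested. Of these, 14 were called higher and 1 lower, with a median difference of 0.52. On the adjusted p alone 32 were higher and 4 lower. *Socs3*, *Cebpb*, *Cebpd* and *Junb* stand in 2 lists each. The calls stand beside 9.88% and 7.19% over the whole array, and the counts on the adjusted p alone, here and in each list, beside 23.4% and 29%. With a signal well above background asked for on all 6 arrays, 13 listed genes were called higher. No test of a list was made.

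Among 10 further ligands and receptors of the family, 9 were on the array and 5 tested, with 1 called higher and 0 lower. *Il27ra*, which pairs with gp130 to receive IL-27, read 7.34, 7.89 and 7.91 in the controls and 8.88, 8.66 and 8.87 in the knockouts. Its groups were apart, by 1.09 (SE 0.17, limma adjusted p = 0.00273), just over 2-fold. The call was lost under 2-fold after normexp, at 0.89, and without Ano1fl/fl replicate 1, at 0.90. On the adjusted p alone, *Il11ra1*, the IL-11 receptor, rose by 0.86 and *Ebi3*, the second chain of IL-27, by 0.76. *Cntf* (0.06) and *Il27* (0.10) did not pass. *Cntfr*, *Ctf2*, *Il31* and *Il31ra* were below background on all arrays.

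In the chain from gp130 to the nucleus, 12 of 12 genes were tested and 0 were called in either direction, since the largest difference on the probes used was 0.82, under 2-fold. That fixes the count at 0 also for limma at an unadjusted p under 0.05 and for the methods' t-test. On the adjusted p alone 7 were higher and 0 lower on the probes used. Dimmer probes of *Stat5b* (-0.81) and *Shc1* (-0.31) were lower past the adjusted p in the limma fit over probes. The 7 include the kinases *Jak2* (0.82) and *Jak1* (0.55), while a second *Jak2* probe gave 0.17. *Stat3*, the main transcription factor of the pathway, read 13.33, 13.01 and 13.06 against 13.34, 13.45 and 13.64. Its difference of 0.34 did not pass (adjusted p = 0.056 in limma), and of its other probes 1 gave 0.31 and 1 gave -0.35. Of the 7, *Ptpn11*, *Grb2* and *Sos1* lost their adjusted p under several alternatives.

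Of 10 inhibitors and receptor sheddases, 3 were called higher and 0 lower. *Socs3*, which binds gp130 and blocks JAK, read 11.24, 11.35 and 11.17 in the controls and 14.48, 14.39 and 14.48 in the knockouts. The groups were far apart, by 3.20 (SE 0.08, limma adjusted p = 5.83e-06), or 9.19-fold. The related inhibitors *Cish* and *Socs1* were higher by 1.81 (adjusted p = 8.54e-05 in limma) and 1.26 (adjusted p = 0.000728). Higher on the adjusted p alone were *Ptpn2* (0.49) and *Ptpn6* (0.25), of which *Ptpn6* missed it under some alternatives. Lower on the adjusted p alone were *Adam10* (-0.53), a protease that sheds the IL-6 receptor, and *Pias1* (-0.51) and *Pias3* (-0.49), which restrain STAT proteins. A second *Pias3* probe did not pass. *Adam17*, the other sheddase, differed by -0.03 and did not pass on its brightest probe, while its other probes gave -0.29, which did not pass, and -0.77 (adjusted p = 0.0191 in the limma fit over probes).

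Of 15 genes that STAT3 is known to induce, 7 were called higher and 0 lower, with a median of 0.97, and 12 passed the adjusted p. *Timp1*, an inhibitor of matrix proteases, read 9.15, 9.01 and 8.71 against 13.63, 13.51 and 13.09 and differed by 4.45 (SE 0.18, limma adjusted p = 2.05e-05). Next came *Socs3*, then the acute-phase genes *Hp* (1.77), for haptoglobin, and *Lcn2* (1.75), for lipocalin 2. *Pim1* (1.38), *Cebpd* (1.08) and *Saa3* (1.07) were the others called. *Cebpd* was just under 2-fold after 75th percentile scaling, at 0.98, and at 0.99 without Ano1fl/fl replicate 2. *Myc* (0.27), *Mcl1* (-0.10) and *Bcl6* (-0.10) did not pass, although a second *Bcl6* probe was lower, at -0.72 (adjusted p = 0.00626 in the limma fit over probes). *Timp1* is also abundant in stromal cells and *Lcn2* in neutrophils, whose marker lists were higher and lower, respectively, in the same arrays.

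Among 9 transcription factors that act on *Il6*, 3 were called higher and 1 lower. *Nfkbiz*, a nuclear partner of NF-kappa B needed for *Il6* induction in macrophages, read 9.76, 9.50 and 9.67 in the controls and 13.15, 13.04 and 13.15 in the knockouts, higher by 3.47 (SE 0.09, limma adjusted p = 6.64e-06). With the probes of *Nfkbiz* averaged the difference was 2.02. *Fosl1* was higher by 2.20, or by 1.19 after normexp and 1.52 with the series matrix, and *Cebpd* by 1.08, while *Fos* was lower by 1.52 on average (adjusted p = 7.09e-05 in limma). *Fosl1* and *Fos* encode alternative partners of Jun in AP-1, so members of that complex moved in both directions, and *Jun* itself differed by -0.09 and did not pass. The NF-kappa B subunits *Nfkb1* (0.59) and *Rela* (0.39) passed the adjusted p under 2-fold, although another *Nfkb1* probe gave -0.08 and did not pass.

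Of 5 bone cell genes known to respond to these cytokines, 3 were tested and 2 were called higher, of which *Tnfrsf11b* was tested only because it was bright in the knockouts. *Ptgs2*, the inducible prostaglandin synthase, read 7.85, 7.22 and 6.72 against 12.27, 12.16 and 11.56, a difference of 4.73 (SE 0.32, limma adjusted p = 0.000116). *Tnfrsf11b*, which encodes osteoprotegerin, the decoy receptor of RANKL made by stromal cells and osteoblasts, was below background in the controls and at least 11.6-fold higher in the knockouts by the processed signals. Its log2 difference was 1.68 after normexp and 2.33 with the series matrix, both smaller than that bound. *Bmp2* differed by -0.26 and did not pass. *Tnfsf11*, the gene of RANKL itself, and *Sost*, a marker of osteocytes, were below background on all 6 arrays.

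**Figure D4:**
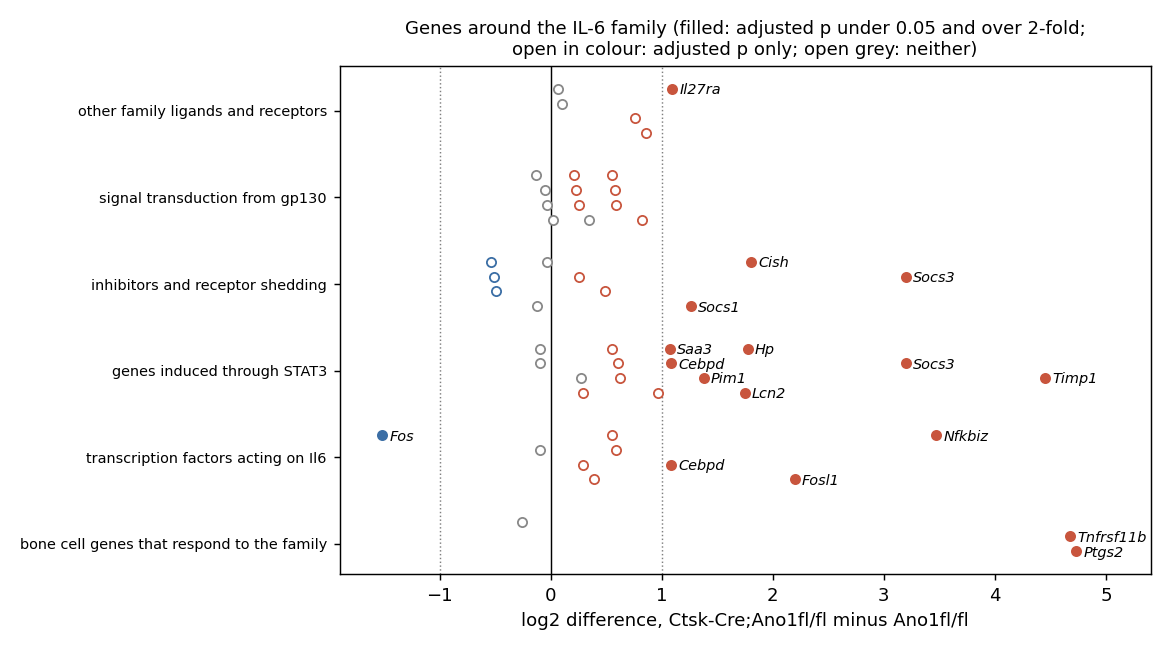
Log2 difference, Ctsk-Cre;Ano1fl/fl minus Ano1fl/fl (x axis), of the 50 listed genes tested, by list (y axis), filled where called and named, with genes of 2 lists drawn in both and dotted lines at 2-fold. *Timp1*, *Socs3*, *Nfkbiz*, *Tnfrsf11b* and *Ptgs2* lie above 3, the gp130 transduction genes lie within 2-fold, and *Fos* is the only gene called lower.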

How the data were processed

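Osteoclast RNA of 3 Ano1fl/fl and 3 Ctsk-Cre;Ano1fl/fl mice, separate animals by the methods, was hybridised to 6 Agilent mouse arrays. The deposited scanner files hold spot intensities made by the authors with Agilent Feature Extraction 10.7.1.1, per the submitters' processing notes, as processed signals corrected for background and trends within an array, on a linear scale and not normalized between arrays. A dim spot carries a surrogate value there. The series matrix deposited by the authors also holds intensities, equal to the median brightness of each spot (largest difference 0).

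Processed signals of transcript spots were put on the log2 scale, with the 143 to 252 outlier spots of an array set missing, and quantile normalized, as the methods name. Spots of a probe were averaged, and 14 probes lacking a value on some array were dropped. A gene took its probe with the highest mean, tested if at least 0.5 of its spots passed the scanner's background mark on every array of either group. Groups were compared in limma 3.58.1 (R 4.3.3, lmFit and eBayes) with Benjamini-Hochberg adjustment over all features, on genes and separately on probes. The code was tested on simulated data. The number of arrays limits the precision.

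The genes named are all members and, in each list, up to 4 called in each direction and those below background throughout; others in the text were added after their values were seen. Members and lists were chosen with earlier results of these data known, and the lists were compiled by hand. Some listed genes are not reported here and were left out of the counts. All 17 member probes with a RefSeq accession matched the gene table under the same symbol. Probe positions are those of the array files on mm9. Promoters came from RefSeq on GRCm38.p6. Which exon or untranslated part a probe lies in was not analysed here. Alternatives were 75th percentile scaling, normexp with an offset of 50, the series matrix, other filters, the mean of probes, limma with an intensity trend, the methods' t-test, the replicate number as a block, each array left out and folds of 1.5 and 3. Scripts used pandas 2.3.3 and matplotlib 3.10.9 under Python 3.11.15, and the R package data.table, version 1.17.8.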

Additional observations from a re-analysis of the deposited data

How the results depend on the processing

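Across 13 to 15 alternatives per value, including each array left out, the 118 values of the 8 members and the 193 values of their 14 probes kept their direction and their adjusted p under 0.05. Of listed genes past the adjusted p, 498 values kept both, and 41 kept the direction but missed the adjusted p, in *Grb2*, *Junb*, *Ptpn11*, *Ptpn6*, *Sos1* and *Pias3*. Counts moved further. Asking for a signal well above background on all 6 arrays left 2 members called higher, because *Lif* and *Osmr* were then not tested, and 1306 genes of the array. Normexp left 1315 genes higher and 666 lower, and 3 members higher, and the series matrix 827 lower. At more than 1.5-fold, 22 listed genes were higher and 3293 genes of the array lower. At more than 3-fold, 9 listed genes were higher, and 1 member, 0 listed genes and 546 genes of the array were lower. On the adjusted p alone, 32 listed genes were higher and 4 lower, and 4839 genes of the array were higher and 5987 lower. Without each array in turn, members stayed at 4 higher and 2 lower, listed genes were 13 to 15 higher and 1 lower, and the array 1999 to 2130 higher and 1455 to 1524 lower. With the replicate number as a block, members were 4 higher and 2 lower, listed genes 14 and 1, and the array 2028 and 1467. The deviations of arrays with the same number correlated at 0.00443, -0.0617 and -0.0808, within the -0.123 to 0.179 of arrays with unlike numbers. With 3 arrays a group these values cannot decide whether equal numbers mark paired animals. Scaling to the 75th percentile moved the median of all genes from -0.06 to -0.12. Genes below background in a group, as *Lif* and *Osmr* in the controls, have only a bound there, and *Il11* and *Ctf1* were too dim to compare.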
